A study of Homo sapiens with 7 samples.

Results

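The genes described here encode the chaperones and folding enzymes of the endoplasmic reticulum (ER), the sensors of the unfolded protein response, the machinery of ER-associated degradation and the SEC61 and translocon-associated (SSR) proteins through which chains enter the ER. They were chosen by gene symbol, and 32 of the 58174 genes in the deposited table carry these symbols. Total RNA was sequenced from Huh-7, a line derived from a hepatocellular carcinoma, at 72 h after transfection. Cells received a control siRNA (siC, 3 libraries) or a pool of siRNAs against IGF2BP1 (siIGF2BP1, named siImp1 in the labels, 4 libraries), and no other agent or genotype separates the groups. IGF2BP1 is an oncofetal RNA-binding protein that stabilizes mRNAs. The comparison asks how the abundance of these transcripts differs when IGF2BP1 is depleted in this 1 line. The labels do not say whether the libraries came from separate cultures, so p-values measure the spread between these libraries.

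Secreted and membrane proteins enter the ER through the SEC61 pore and are folded there by the HSP70 chaperone BiP (HSPA5), the HSP90 chaperone GRP94 (HSP90B1), the lectins calnexin and calreticulin and the disulfide isomerases. When unfolded chains build up, the sensors IRE1 (ERN1), PERK (EIF2AK3) and ATF6 raise the transcription of chaperones and of the degradation machinery, in part through the factor XBP1. Chains that do not fold are moved back to the cytosol and degraded. Hepatocytes secrete large amounts of protein, and their ER is correspondingly rich in these factors.

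The best known DNA elements of this response were searched in RefSeq promoter windows (GRCh38.p14) that run from 250 bases before to 50 bases after each annotated start, on both strands. The ER stress response element (ERSE, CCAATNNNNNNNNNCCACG, known to be bound by NF-Y and ATF6) was found in 7 of the 31 genes with a window, or 22.6%, against 25 of 27305 genes in all (0.0916%). The second form of the element (ERSE-II, ATTGGNCCACG) was found in 3 of the 31 (9.68%) and in 19 genes in all (0.0696%). The XBP1-type core (TGACGTGG) was found in 3 of the 31 (9.68%) and in 253 genes in all (0.927%). Of all 35116 windows, 0.0769% held an ERSE, 0.0541% an ERSE-II and 0.729% the core. Together 12 of the 31 genes (38.7%) held at least 1 of the 3, against 1.08% of all genes. The 31 genes were chosen for their part in ER folding and this response, and they are counted among all genes. A higher share was thus built into the choice of genes, and the shares are a description, not an independent test. PDIA3 had no window.

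The following stretches show the element of the gene past the threshold (HERPUD1), the elements of the chief chaperones and of XBP1, and those of members with large differences (CANX, SDF2L1, SSR3), each read 5′ to 3′ on the strand that carries the element, with the matching letters in capitals and the free spacer in lower case.
HERPUD1 (ERSE-II, chr16:56932016-56932044, plus strand): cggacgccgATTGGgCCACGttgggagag
SDF2L1 (ERSE-II, chr22:21642105-21642133, minus strand): agggttttgATTGGtCCACGcttccgagg
HYOU1 (ERSE-II, chr11:119057371-119057399, plus strand): cggcctgggATTGGaCCACGtcacggggc
HSPA5 (ERSE, chr9:125241386-125241414, minus strand): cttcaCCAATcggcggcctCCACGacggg
HSP90B1 (ERSE, chr12:103930211-103930239, plus strand): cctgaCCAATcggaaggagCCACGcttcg
XBP1 (ERSE, chr22:28800598-28800626, minus strand): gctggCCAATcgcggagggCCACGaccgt
CANX (ERSE, chr5:179698773-179698801, plus strand): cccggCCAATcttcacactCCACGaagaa
CALR (ERSE, chr19:12938379-12938407, minus strand): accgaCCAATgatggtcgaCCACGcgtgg
SSR3 (XBP1-type core, chr3:156554148-156554177, plus strand): agtttccttgcTGACGTGGctgttatcaga
The HERPUD1 element lies at positions -117 to -107 from the annotated start, on the strand of the gene. The HSPA5 element lies at -66 to -48 and that of XBP1 at -52 to -34. The CANX element is a single stretch of the genome that appears in the windows of 3 annotated starts. HSP90B1 holds a second ERSE at -89 to -71 on the other strand. HYOU1 holds a second ERSE-II at -79 to -69, and its XBP1-type core at -188 to -181 overlaps the ERSE-II printed above, so these letters were counted for both. A match is a description of the letters and does not show that a factor was bound in these cells.

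**Figure D1:**
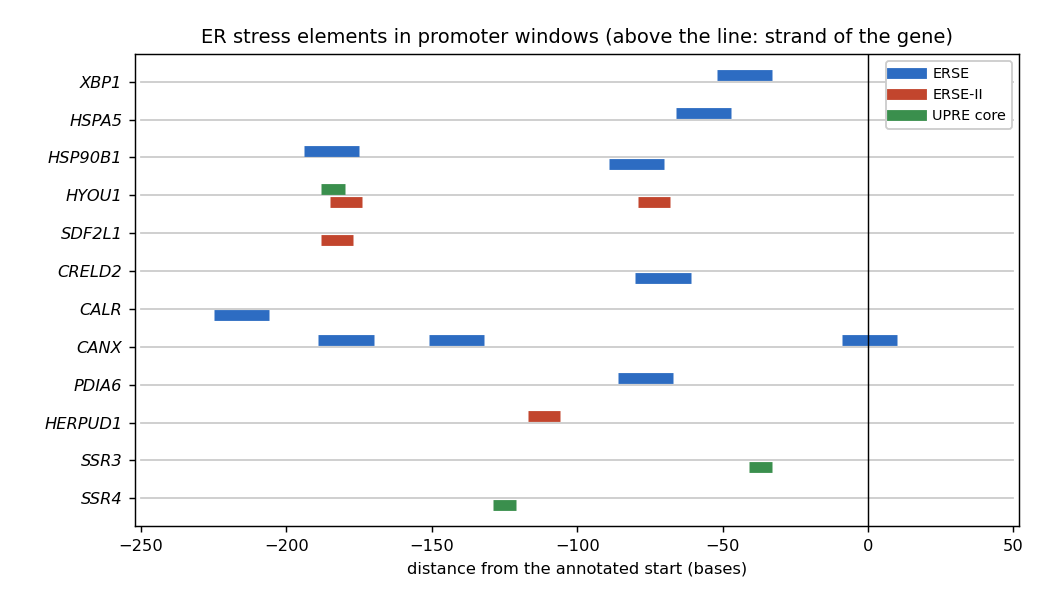
Position of each ERSE (19 letters with its spacer), ERSE-II and XBP1-type (UPRE) core in bases from the annotated start, for the 12 genes with a match; bars above a line lie on the strand of the gene and bars below it on the other strand. CANX shows 1 genomic element once for each of 3 annotated starts, and HYOU1 shows the overlapping pair.

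IGF2BP1 itself was at 81.9, 80.4 and 84.4 FPKM (fragment counts divided by gene length and library size, so that levels can be compared between genes) in siC replicates 1 to 3 and at 15.6, 15.7, 16.6 and 15.3 FPKM in siIGF2BP1 replicates 1 to 4, that is at 19.2% of siC. Libraries held from 12826550 to 33212205 reads on genes. Of the hepatocyte and hepatoma markers, ALB (1710 to 2040 FPKM) and AFP (2610 to 3450 FPKM) were abundant in every library. The lowest marker of this kind was TTR, at 14.1 to 26.5 FPKM. Of markers of other cell types, PTPRC, CD68 and CDH5 did not exceed 0.0387 FPKM and COL1A1 did not exceed 0.074 FPKM. PECAM1, an endothelial marker, was at 2.58 to 3.29 FPKM (276 to 759 reads), PDGFRB at 0.509 to 0.843 FPKM and COL3A1 at 0.267 to 0.486 FPKM. The summed level of all 7 such markers was 3.43 to 4.10 FPKM in siC and 4.13 to 4.54 FPKM in siIGF2BP1. Their part in the results below was not tested.

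The replicate siC 3 stood apart from the other 2 siC libraries in these genes. It differed from their mean by more than 0.5 on the log2 scale in 12 of the 32 genes, below in HYOU1, SDF2L1, CRELD2, MANF, CALR, PDIA4, P4HB and SEC61G and above in EIF2AK3, PDIA3, SSR1 and SSR3. Over the 32 genes its distance from the mean of the other siC libraries varied with the GC content of the transcript (Spearman's rho = -0.639, against -0.427 over 14711 genes), and that of siIGF2BP1 replicate 2 from the other depleted libraries did so too (rho = -0.725, against -0.386). The other libraries gave positive values of 0.661 for siC 1, 0.585 for siC 2 and 0.154, 0.361 and 0.559 for siIGF2BP1 replicates 1, 3 and 4, and distances within a group sum to 0, so that its libraries are not independent of each other. The spread of these distances over the 32 genes was largest in siC 3 (SD 0.471, against 0.271 and 0.21 in siC 1 and 2 and 0.075 to 0.163 in siIGF2BP1). These correlations are across genes of the same libraries, which are not independent, and are given as a description. The part of GC content in the differences between the groups was not tested. A fit with the GC trend removed is among the alternatives given further below. Values without siC 3 are therefore given beside those of genes in which it stood apart.

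**Figure D2:**
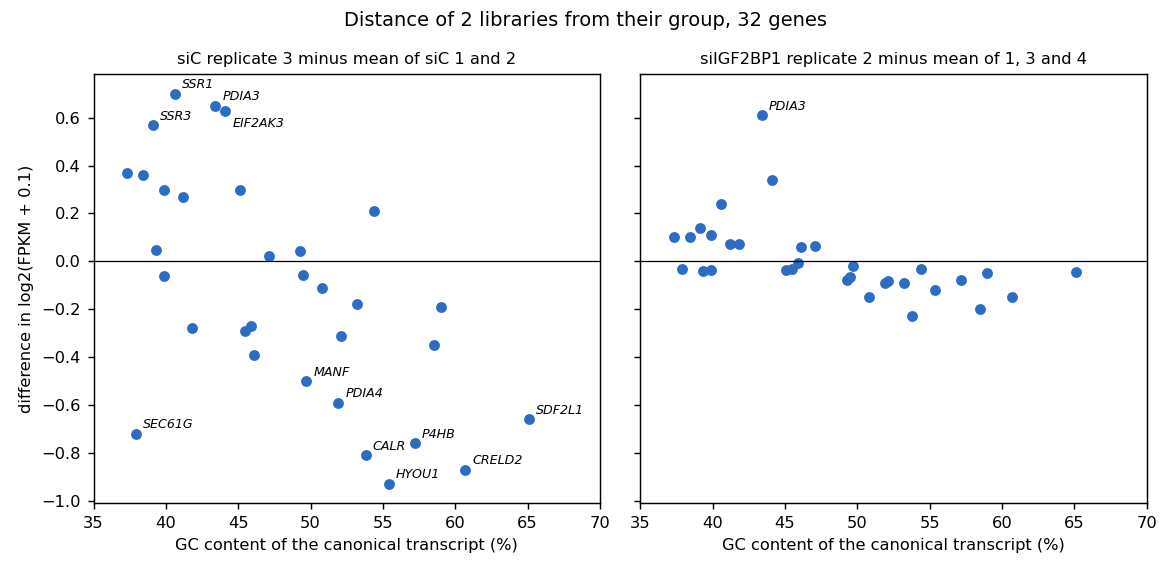
Difference in log2(FPKM + 0.1) of siC replicate 3 from the mean of siC 1 and 2 (left) and of siIGF2BP1 replicate 2 from the mean of the other 3 (right), against the GC content in percent of the canonical transcript, 1 point for each of 32 genes. Genes more than 0.5 from the zero line are named, such as HYOU1 at -0.93 and SSR1 at 0.70 in siC 3.

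The gene HERPUD1, which encodes a membrane protein of the ER degradation complex, rose after IGF2BP1 depletion, and none of the other 31 genes passed the threshold. All 32 genes were among the 14839 tested (those averaging 1 FPKM or more across libraries), and a gene was called at an adjusted p of 0.01 or less from limma on log2(FPKM + 0.1). Called genes made up 3.12% of the 32, while 3.93% of all genes tested were called, 1.65% of them higher and 2.28% lower. At an unadjusted p under 0.05 limma gave 3 lower (SEL1L, EDEM2 and SSR3) and 5 higher members (XBP1, DNAJB9, CANX, PDIA6 and HERPUD1), that is 9.38% and 15.6% of the 32, beside 14.8% and 11% of all genes. By voom on the recovered reads, CANX and HERPUD1 passed the threshold, 6.25% of the 32 beside 5.67% of all genes. How the share among the ER genes stood to that of the whole table depended on the fit: it was 9.38% beside 3.63% with quantile normalization, 12.5% beside 10.3% without siC 3, 18.8% beside 10.8% without siC 3 and siIGF2BP1 replicate 2, and 34.4% beside 18.5% (11 genes) with libraries weighted by their spread. With the GC trend removed it was 6.25% beside 6.59%, and with median centring 3.12% beside 3.69%. Leaving out 1 library other than siC 3 left no call among the 32. Mean log2 changes ranged from -0.50 to 0.50, and 26 genes had a higher and 6 a lower mean in siIGF2BP1. The median log2 change of the 32 was 0.13, beside -0.017 for all genes tested. This median rested on 1 library: without siC 3 it was 0.034, beside -0.031 for all genes, with 18 higher and 14 lower means. With the GC trend removed and all libraries kept it was 0.15, beside 0.006 for all genes, with 27 higher and 5 lower means.

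**Figure D3:**
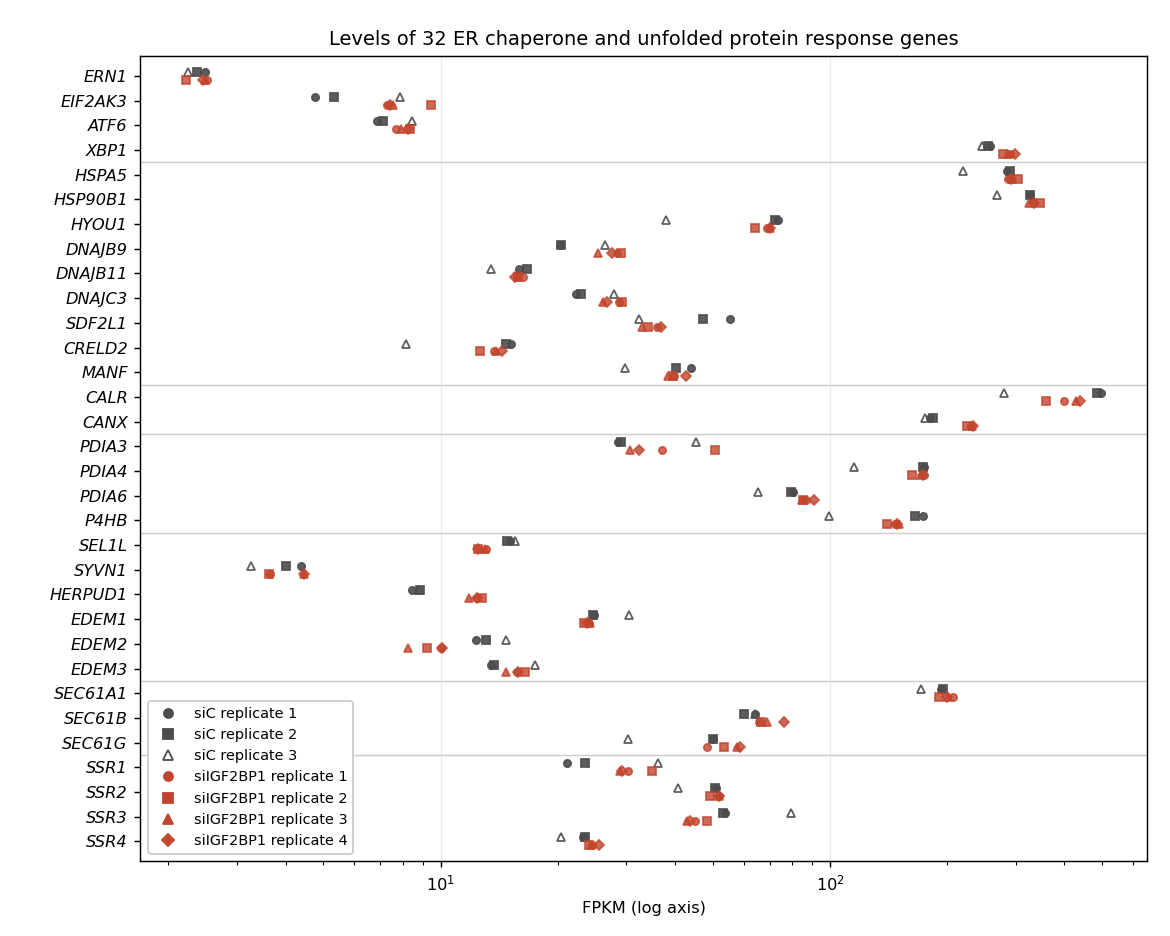
FPKM on a log axis of the 32 genes in each of the 3 siC (grey) and 4 siIGF2BP1 (red) libraries, with siC replicate 3 as an open triangle and lines between functional groups. HERPUD1, CANX and SEL1L separate the groups, while siC replicate 3 lies apart in genes such as HYOU1 and CALR.

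Levels in siC spanned a wide range. CALR (421 FPKM), HSP90B1 (307 FPKM) and HSPA5 (264 FPKM) exceeded 99.5%, 99.3% and 99.1% of the genes tested. ERN1, at 2.36 FPKM, exceeded only 24.8%. Other folding genes ranged down to CRELD2, which exceeded 72.5% of the genes tested. These 3 chaperones were thus among the most abundant mRNAs of these cells, while the sensors ERN1, EIF2AK3 and ATF6 were at low to middle levels. Summed over the 32 genes, the level was 2800, 2770 and 2240 FPKM in siC and 2780, 2740, 2790 and 2860 FPKM in siIGF2BP1, so that the groups overlapped. As a share of the reads on genes, the 32 took 1.12%, 1.11% and 0.946% in siC and 1.2%, 1.2%, 1.2% and 1.21% in siIGF2BP1. This share, which does not correct for gene length or for TMM scaling, was higher in every depleted library than in any siC library, with siC 3 the lowest.

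Among the sensors and their factor, none of 4 genes passed the threshold. ERN1, the kinase and endonuclease that splices XBP1 mRNA, was at 2.48, 2.37 and 2.24 FPKM in siC and 2.51, 2.22, 2.48 and 2.46 FPKM in siIGF2BP1. Its groups overlapped fully, and the log2 change was 0.033 (95% interval -0.19 to 0.25). ATF6, a membrane-bound transcription factor released by cleavage, was at 6.88, 7.10 and 8.43 FPKM in siC and 7.67, 8.36, 7.92 and 8.24 FPKM in siIGF2BP1. Here siC 3 exceeded all depleted libraries, and the log2 change was 0.11 (interval -0.091 to 0.31, limma adjusted p = 0.482), and 0.20 without siC 3 (adjusted p = 0.0442).

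The values of EIF2AK3, the kinase PERK that slows translation, were 4.77, 5.33 and 7.87 FPKM in siC and 7.29, 9.43, 7.55 and 7.39 FPKM in siIGF2BP1. All depleted libraries lay above siC 1 and 2, while siC 3 lay among them and siIGF2BP1 replicate 2 above all others. The log2 change was 0.42 (SE 0.182, interval -0.0064 to 0.85, limma adjusted p = 0.199). Without siC 3 it was 0.63 with an adjusted p of 0.0130, and without siC 3 and siIGF2BP1 replicate 2 it was 0.55 with an adjusted p of 0.00473, past the threshold. That last fit was added after the data were seen and left out the highest library of each group for this gene. It called 10.8% of all genes tested, beside 3.93% in the main fit.

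XBP1, the transcription factor activated through IRE1, was at 257, 255 and 246 FPKM in siC and at 289, 278, 287 and 299 FPKM in siIGF2BP1. The groups did not overlap, yet the log2 change of 0.19 (SE 0.0632) had an adjusted p of 0.111 in limma. FPKM values per gene do not separate spliced from unspliced XBP1 mRNA, so they hold no measure of IRE1 activity.

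Of the 9 HSP70 and HSP90 chaperones with their cofactors and small induced proteins, none passed the threshold. HSPA5, or BiP, was at 284, 290 and 219 FPKM in siC and at 286, 303, 293 and 292 FPKM in siIGF2BP1. Depleted libraries matched siC 1 and 2 closely, and siC 3 alone was low. The log2 change was 0.16 (interval -0.094 to 0.42, adjusted p = 0.41) and 0.035 without siC 3. HSP90B1, or GRP94, showed the same arrangement, with 327, 327 and 269 FPKM in siC and 333, 347, 324 and 334 FPKM in siIGF2BP1. Its log2 change was 0.13 (interval -0.089 to 0.34) and 0.033 without siC 3. Among the siC libraries, siC 3 was the lowest in 19 and the highest in 11 of the 32 genes, and changes in this class moved in both directions when it was left out.

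DNAJB9, a cofactor of BiP that serves degradation, was at 20.3, 20.4 and 26.4 FPKM in siC and at 28.4, 29.1, 25.3 and 27.6 FPKM in siIGF2BP1. The libraries siC 1 and 2 lay below all depleted ones, and siC 3 lay above siIGF2BP1 replicate 3. Its log2 change was 0.31 (SE 0.108, interval 0.057 to 0.57, adjusted p = 0.12), and without siC 3 it was 0.44 with an adjusted p of 0.00523. DNAJC3, a cofactor of BiP known as an inhibitor of PERK, had a log2 change of 0.19 (adjusted p = 0.246), and 0.29 without siC 3 (adjusted p = 0.0152).

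SDF2L1, a small protein that works with BiP and ERdj3, had a lower mean in siIGF2BP1. It was at 55.3, 47.2 and 32.4 FPKM in siC and at 36, 34.1, 32.8 and 36.7 FPKM in siIGF2BP1. Again siC 3 fell in with the depleted libraries. The log2 change was -0.33 (SE 0.171, interval -0.73 to 0.072, adjusted p = 0.28), and without siC 3 it was -0.55 with an adjusted p of 0.00513. The other 4 members of this class had log2 changes from 0.051 (DNAJB11, or ERdj3) to 0.22 (HYOU1, the nucleotide exchange factor of BiP). For HYOU1, DNAJB11, CRELD2 and MANF the sign turned when siC 3 was left out, with values of -0.090, -0.040, -0.13 and -0.073.

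The lectin chaperones hold newly made glycoproteins, calnexin at the membrane and calreticulin in the lumen. CANX, which encodes calnexin, was at 181, 184 and 175 FPKM in siC and at 230, 225, 231 and 233 FPKM in siIGF2BP1, means of 180 ± 4.77 (SD, n = 3) and 230 ± 3.28 (SD, n = 4). Every depleted library exceeded every siC library, siC 3 included. The mean was 128% of siC, and the log2 change of 0.35 (SE 0.0587, interval 0.22 to 0.49) had a limma adjusted p of 0.0115, just outside the threshold. It was past the threshold in 5 of 18 alternative fits, among them the fit without siC 3 (0.33, adjusted p = 0.00197) and voom on the recovered reads (0.36, adjusted p = 0.00851). CANX overlaps CBY3 on the other strand, and since the assignment of reads by strand is not stated, reads of the 2 genes cannot be told apart.

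CALR, which encodes calreticulin, was at 496, 486 and 279 FPKM in siC and at 399, 359, 428 and 439 FPKM in siIGF2BP1. The depleted libraries lay between siC 3 and the other siC libraries. Its log2 change was -0.0065, with a wide interval from -0.50 to 0.49, and the value was -0.28 without siC 3 (adjusted p = 0.0595).

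None of the 4 disulfide isomerases passed the threshold, and their log2 changes ran from 0.049 for P4HB to 0.21 for PDIA6. PDIA6 was at 80.3, 79.6 and 65.5 FPKM in siC and at 86.6, 85.4, 84.5 and 90.9 FPKM in siIGF2BP1, without overlap (adjusted p = 0.174), and its change was 0.12 without siC 3 (adjusted p = 0.0841). P4HB, the founding disulfide isomerase, and PDIA4 moved to -0.21 (adjusted p = 0.0186) and -0.032 without siC 3. PDIA3, the isomerase that pairs with the lectins, was the member in which siIGF2BP1 replicate 2 stood out most, at 50.7 FPKM against 30.6 to 37.1 FPKM in the other depleted libraries. In siC it was at 28.6, 29 and 45.3 FPKM, so that siC 3 was high as well. Its log2 change was 0.14 (interval -0.40 to 0.68, limma adjusted p = 0.758), and 0.36 without siC 3 (adjusted p = 0.241). Pseudogenes named after PDIA3, XBP1, HSPA5, SEC61G, SSR1 and SSR4 are annotated, so the values of these 6 members can depend on how reads that fit several places were counted.

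Of the 6 genes of the degradation machinery, HERPUD1 passed the threshold. HERPUD1 (ENSG00000051108, chr16:56932142-56944864 in GRCh38, plus strand) encodes a scaffold of the HRD1 ligase complex and is known as one of the most inducible genes of the unfolded protein response. It was at 8.45, 8.87 and 8.79 FPKM in siC and at 12.4, 12.8, 11.8 and 12.4 FPKM in siIGF2BP1, on 624 to 1464 reads per library. The means were 8.70 ± 0.223 (SD, n = 3) and 12.3 ± 0.417 (SD, n = 4), a rise to 142% of siC, with no overlap and with siC 3 in place among its group. Its log2 change was 0.50 (SE 0.0569, interval 0.36 to 0.63, limma adjusted p = 0.00293). The size changed little between 18 alternative fits, from 0.46 to 0.55, but the call did not hold in all of them. It held in 11 of the 18, and when 1 library was left out it held only without siC 3 (adjusted p = 0.00183), while the other 6 omissions gave adjusted p-values from 0.0126 to 0.0195. The fit with the replicate number as a block gave 0.49 with an adjusted p of 0.155.

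SEL1L, the partner that holds the HRD1 ligase at the membrane, was at 15.1, 14.8 and 15.5 FPKM in siC and at 13.1, 12.5, 13 and 12.5 FPKM in siIGF2BP1. All depleted libraries lay below all siC libraries, at 84.6% on average. The log2 change of -0.24 (SE 0.0529, interval -0.36 to -0.12) did not pass the threshold (limma adjusted p = 0.0309). SYVN1, the HRD1 ligase itself, was the least abundant member of the machinery at 3.87 FPKM in siC and had a log2 change of 0.065 (adjusted p = 0.815). Thus the 3 mRNAs of this complex, HERPUD1, SEL1L and SYVN1, were arranged differently: HERPUD1 above siC in every depleted library, SEL1L below it in every depleted library, and SYVN1 overlapping.

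EDEM2, which starts the trimming of mannose on chains bound for degradation, was at 12.3, 13.1 and 14.7 FPKM in siC and at 10.0, 9.23, 8.26 and 10.1 FPKM in siIGF2BP1. There was no overlap, and the mean was 70.5% of siC. The log2 change of -0.50 was as large as that of HERPUD1, but its SE of 0.098 was wider and its adjusted p was 0.0203 in limma. It was -0.43 without siC 3 (adjusted p = 0.0202). Among its relatives, EDEM1 had a log2 change of -0.15 (adjusted p = 0.32; -0.052 without siC 3). EDEM3 had one of 0.083 (adjusted p = 0.681), and of 0.20 without siC 3 (adjusted p = 0.041). EDEM2 rested on few reads, 210 to 805 per library.

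**Figure D4:**
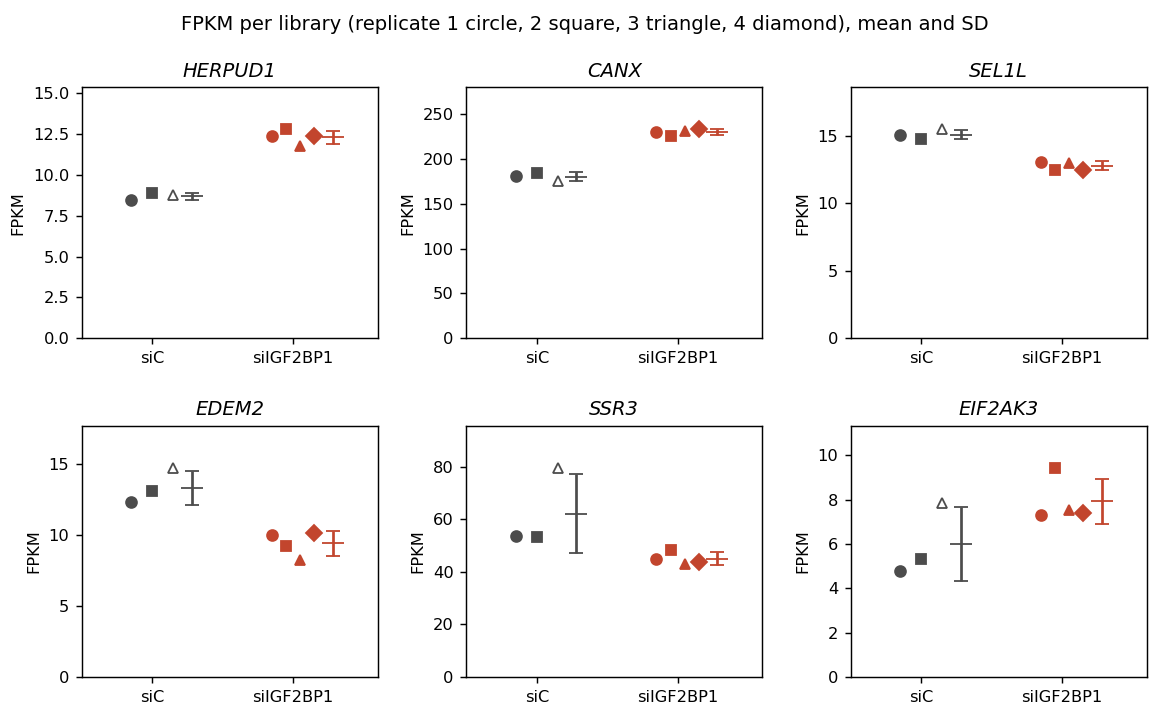
FPKM per library for HERPUD1, CANX, SEL1L, EDEM2, SSR3 and EIF2AK3 in siC (grey) and siIGF2BP1 (red), with mean and SD (n = 3 and n = 4) beside the points and axes from 0. The groups are apart in all genes shown but EIF2AK3, and siC replicate 3 (open triangle) widens the siC spread of SSR3 and EIF2AK3.

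The SEC61 pore, through which chains pass into the ER, did not pass the threshold in any of its 3 subunits. SEC61G was at 50, 50 and 30.3 FPKM in siC and at 48.3, 53.4, 57.6 and 58.6 FPKM in siIGF2BP1. The low siC 3 gave it the largest log2 change of the pore, 0.36 (interval -0.080 to 0.80, adjusted p = 0.282), and the value was 0.12 without that library. SEC61A1, the channel subunit, and SEC61B had log2 changes of 0.10 (adjusted p = 0.467) and 0.14 (adjusted p = 0.279), and of 0.038 and 0.15 without siC 3.

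Nor did any of the 4 translocon-associated proteins, which sit beside the pore and help certain chains to enter. SSR3 was at 53.7, 53.1 and 79.5 FPKM in siC and at 44.9, 48.4, 42.9 and 43.8 FPKM in siIGF2BP1. The depleted libraries all lay below siC, at 72.4% on average, but siC 3 widened the spread. The log2 change was -0.44 (SE 0.147, interval -0.79 to -0.094, adjusted p = 0.11). Without siC 3 it was -0.25 with an adjusted p of 0.0218, which did not pass, and without both siC 3 and siIGF2BP1 replicate 2 it was -0.28 with an adjusted p of 0.0042, which did. The fit without both was added after the data were seen, and for SSR3 too it left out the highest library of each group.

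SSR1 was at 21.1, 23.5 and 36.2 FPKM in siC and at 30.2, 34.8, 28.9 and 29.3 FPKM in siIGF2BP1. Here siC 3 was above all other libraries and siC 1 and 2 below them. The log2 change was 0.23 (interval -0.20 to 0.66, adjusted p = 0.494), and without siC 3 it was 0.46 (adjusted p = 0.0137). SSR2 and SSR4 had log2 changes of 0.12 (adjusted p = 0.466) and 0.14 (adjusted p = 0.253), and of 0.016 and 0.074 without siC 3.

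Over all 32 genes, the groups did not overlap in 4 genes that were lower (SEL1L, EDEM1, EDEM2 and SSR3) and 6 that were higher in siIGF2BP1 (XBP1, CANX, PDIA6, HERPUD1, SEC61B and SSR4). These are 12.5% and 18.8% of the members, while 15.1% and 11.9% of all genes tested were lower and higher without overlap. Members with an element in the promoter window had a median log2 change of 0.16 (12 genes, from -0.44 to 0.50) and those without had one of 0.10 (19 genes, from -0.50 to 0.42), and without siC 3 these medians were 0.034 and 0.016. Of the genes with an ERSE-II, HERPUD1 had a log2 change of 0.50, HYOU1 of 0.22 and SDF2L1 of -0.33, and only HERPUD1 was called.

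**Figure D5:**
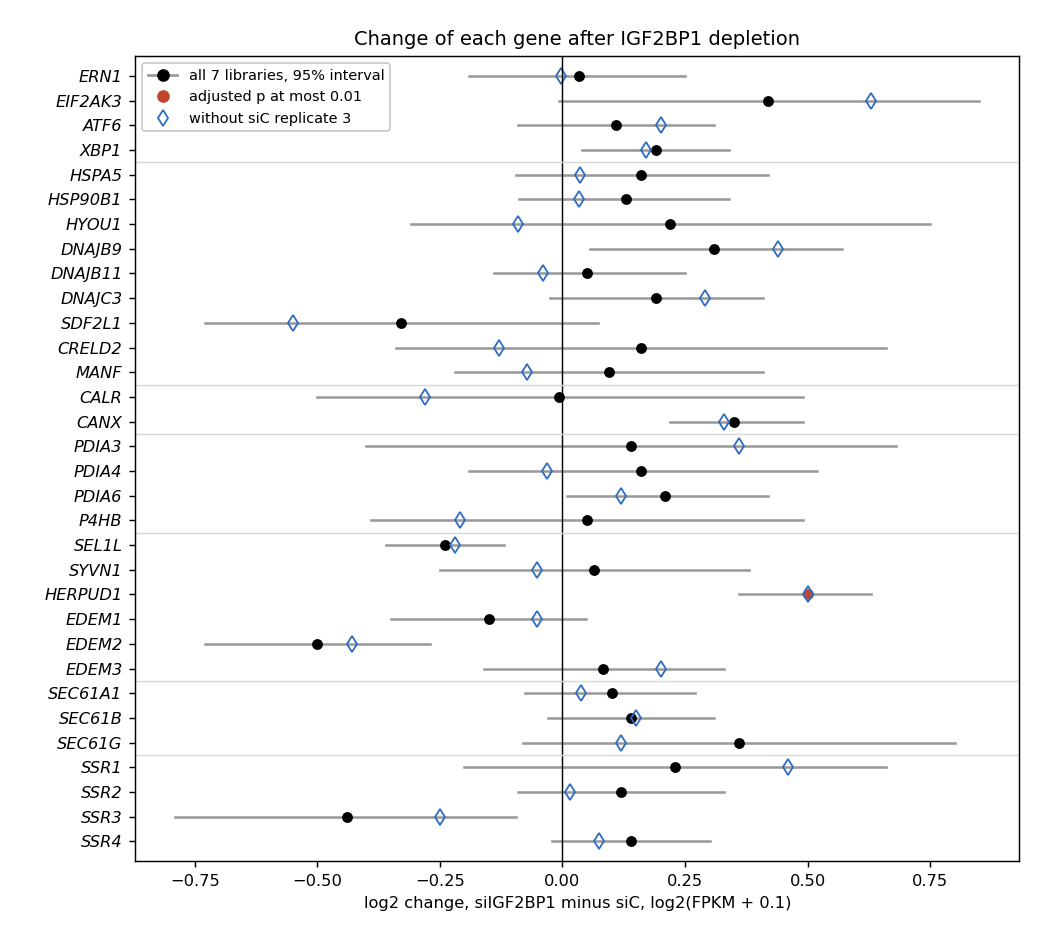
Log2 change (siIGF2BP1 minus siC, on log2(FPKM + 0.1)) with its 95% interval for each of the 32 genes, HERPUD1 as the gene past the threshold of 0.01, and the value without siC replicate 3 as an open diamond. Intervals of most genes include 0, and the diamonds of HERPUD1, CANX and SEL1L lie close to the values from all libraries.

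Other genes of ER folding, glycosylation, degradation, translocation and signaling were taken from a list of 62, of which 61 were tested. Of these 2 fell and none rose in limma, 3.28% beside 3.93% of all genes. With an unadjusted p below 0.05, 8 were lower (13.1%, beside 14.8% of all genes) and 10 were higher (16.4%, beside 11%), and voom called 3 lower (SPCS3, ERO1A and MBTPS2) and 0 higher. The median log2 change of the list was 0.039, beside -0.017 for all genes. SPCS3, a subunit of the signal peptidase that clips chains entering the ER, was at 15.6, 15.9 and 21.6 FPKM in siC and at 9.86, 10.3, 9.82 and 9.80 FPKM in siIGF2BP1 (log2 change -0.81, SE 0.118, limma adjusted p = 0.00702). ERO1A, the oxidase that recharges the disulfide isomerases, was at 11, 11.6 and 14.1 FPKM in siC and at 7.44, 7.81, 6.64 and 7.72 FPKM in siIGF2BP1 (log2 change -0.71, SE 0.106, limma adjusted p = 0.00758). Both were below siC in every depleted library, and both calls held in 1 of 7 fits that left out a library, the fit without siC 3. In both genes siC 3 was the highest siC library. Without it the log2 change was -0.66 for SPCS3 (limma adjusted p = 0.000507) and -0.60 for ERO1A (limma adjusted p = 0.00382).

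The next 5 of that list by size of change did not pass. MBTPS2, the protease that releases ATF6, had a log2 change of -0.65 (adjusted p = 0.0182), and of -0.51 without siC 3 (adjusted p = 0.00541, past the threshold). ATF6B, the relative of ATF6, had one of -0.54 (adjusted p = 0.183), and of -0.81 without siC 3 (adjusted p = 0.00491, past the threshold). FKBP10, a prolyl isomerase, had one of 0.48 (adjusted p = 0.176), and of 0.22 without siC 3 (adjusted p = 0.0406). DDIT3, or CHOP, the factor induced by lasting ER stress, was at 10.2, 9.37 and 5.28 FPKM in siC and at 12, 10.9, 10.8 and 10.8 FPKM in siIGF2BP1 (log2 change 0.48, adjusted p = 0.212; 0.19 without siC 3). ERP29 had one of -0.48 (adjusted p = 0.386), which was -0.89 without siC 3 (adjusted p = 0.00541). ATF4, the factor translated when PERK is active, had a log2 change of 0.026 (adjusted p = 0.94), and DERL3 was listed at 0 in all 7 libraries.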

How the data were processed

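Reads were trimmed with Cutadapt 1.14, aligned with HISAT2 2.1.0 to GRCh38 and counted per gene with featureCounts 1.5.3 (SAMtools 1.5 is also named), per the labels and the study's methods, and TMM scaling came from edgeR 3.18.1. The authors deposited FPKM per gene and library; their fold changes, p-values and FDR were not used. The study names a directional library kit, but whether reads were assigned by strand is not given in the sources used here. Of the 32 genes, 10 overlap another coding gene, 9 of them on the other strand and 3 (DNAJB11, SYVN1 and SSR1) on the same strand. FPKM multiplied by gene length gave whole multiples of 1 read (tolerance 0.1) for 100.0% of values above 0, which gave the depth and, as an alternative, reads for voom; this called 489 genes lower and 353 higher.

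The groups were compared on log2(FPKM + 0.1) by limma 3.58.1 (R 4.3.3, trended prior variance, no covariate, two-sided), with p-values adjusted by Benjamini-Hochberg over the 14839 genes that averaged 1 FPKM or more, and called at 0.01. Intervals are 95%. Log2 changes are siIGF2BP1 minus siC and understate changes of low genes. No 2 libraries of a group agreed within sampling noise. In simulated reads (14786 genes tested), the test called 83 of 92 genes changed 4-fold, 33 of 91 changed 2-fold and 2 that were unchanged. The simulation set 200 genes to change, used a common dispersion of 0.02 and held no library that stands apart.

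The members and lists were chosen with earlier results of these data known. Values per library are given for the member past the threshold, the 10 members with the largest log2 change, the sensors, HSPA5 and HSP90B1, and, in the pathway list, for called genes; the next 5 by size are named. Per-library values of other genes (CALR, PDIA6, PDIA3, DDIT3), and the mention of ATF4, were added after their values were seen. Alternatives were a pseudocount of 1, no filter, a filter at 5 FPKM, quantile normalization, median centring, no trend, voom, array weights, a replicate block, a threshold of 0.05 and leaving out each library; leaving out both siC 3 and siIGF2BP1 2, and removing a GC trend, were added after seeing the data.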

Additional observations from a re-analysis of the deposited data

Results flagged for a closer look

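Among the 4 siIGF2BP1 libraries, 2 of the 32 genes had a library farther from the others than Dixon's criterion allows at the 95% level (the gap to the nearest library over the whole range). For EIF2AK3 the ratio was 0.877, with replicate 2 at 9.43 FPKM and the other 3 from 7.29 to 7.55 FPKM. For SSR2 it was 0.908, with replicate 2 at 49.1 FPKM and the other 3 from 51.8 to 52 FPKM. Chance gives such a value in about 1 of 20 groups, or 1.6 of the 32 examined. The siC libraries were not examined in this way, so these counts do not cover siC 3, which is described above. In both genes it was the same library, whose distance from the rest of its group varied with GC content over the 32 genes (rho = -0.725). The cause was not tested.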

How the results depend on the processing

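Over the 32 genes, calls lower and higher were 0 and 1. They were 0 and 3 with quantile normalization, 0 and 2 with voom, 4 and 7 with array weights, and 2 and 2 at a threshold of 0.05. They were 1 and 5 without siC 3 and siIGF2BP1 2, and 0 and 2 with the GC trend removed. In that last fit DNAJB9 (0.33, limma adjusted p = 0.00976) and HERPUD1 (0.53, limma adjusted p = 0.000912) were called higher. CANX was at 0.37 there (limma adjusted p = 0.0281). Leaving out 1 library gave 0 to 1 lower and 0 to 3 higher; without siC 3 SDF2L1 was lower and DNAJB9, CANX and HERPUD1 higher, and each of the other 6 omissions left no call.
In the list of 62 genes, calls lower and higher were 2 and 0. None was lower without a filter, with quantile normalization or without the trend. There were 10 and 5 with array weights, 5 and 1 at 0.05, 9 and 3 without both libraries, and 1 higher with the GC trend removed. Leaving out 1 library gave 0 to 7 lower and 0 to 2 higher, the upper values without siC 3.
Of all genes, 338 were lower and 245 higher. These were 206 and 146 without a filter, 489 and 353 with voom, 1722 and 1022 with array weights, 1010 and 703 at 0.05, 1043 and 562 without both libraries, and 505 and 464 with the GC trend removed. Leaving out 1 library gave 53 to 990 lower and 66 to 533 higher, with 990 and 533 without siC 3.
The median log2 change of the 32 was 0.13, and 0.21 with quantile normalization, 0.033 with array weights, 0.036 without both libraries and from 0.034 (without siC 3) to 0.16 when 1 library was left out. With the GC trend removed it was 0.15.
A replicate block (replicates 1 to 3) left no call among the 32 genes, the list or all genes (0 lower and 0 higher). The study names no pairing, so the replicate number was not taken as one. Deviations of same-numbered libraries from their group means had correlations of -0.0263, -0.118 and -0.111. Such deviations sum to 0 within a group, so these values cannot show whether libraries were paired.
Signs turned as follows. With array weights, without siC 3 and without both libraries the log2 change was -0.055, -0.090 and -0.061 for HYOU1, -0.036, -0.040 and -0.038 for DNAJB11, -0.093, -0.13 and -0.093 for CRELD2, -0.049, -0.073 and -0.068 for MANF, -0.0044, -0.032 and -0.0088 for PDIA4, -0.17, -0.21 and -0.19 for P4HB, and -0.036, -0.053 and -0.0027 for SYVN1. The highest values with 1 library left out were 0.38 for HYOU1, 0.32 for CRELD2, 0.21 for MANF, 0.27 for PDIA4, 0.19 for P4HB, 0.15 for SYVN1 and 0.12 for DNAJB11. ERN1 was at -0.012 with quantile normalization and from -0.0026 (without siC 3) to 0.072 with 1 library left out. PDIA3 was at -0.012 without siIGF2BP1 2 and at 0.36 without siC 3. CALR was at 0.023 with median centring, 0.25 with quantile normalization, 0.0044 with voom, 0.020 with the GC trend removed, and from -0.28 to 0.14 when 1 library was left out (0.14, 0.12, 0.00096 and 0.051 without siC 1, siC 2, siIGF2BP1 1 and siIGF2BP1 2). The causes were not tested. A pseudocount of 1 changed no call or sign of the 32 genes, nor did a filter at 5 FPKM, which left ERN1 and SYVN1 untested.
With 3 and 4 libraries, simulated 2-fold changes were called in 33 of 91 genes. The simulation held no library that stands apart as siC 3 does, so this rate does not carry over to these data. How often changes of the size seen here were missed was not measured.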

Other observations

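Ratios of FPKM between genes of the same complex or family were compared within each library. The pairs were chosen after their values were seen, so these are descriptions without a test. SSR3 over SSR1, subunits of the same complex, was 2.55, 2.26 and 2.20 in siC and 1.48, 1.39, 1.48 and 1.49 in siIGF2BP1. Here siC 3 did not stand apart, although it was high for both genes. HERPUD1 over SEL1L was 0.558, 0.6 and 0.569 in siC and 0.945, 1.02, 0.906 and 0.989 in siIGF2BP1. EDEM2 over EDEM1 was 0.494, 0.533 and 0.482 in siC and 0.418, 0.394, 0.342 and 0.427 in siIGF2BP1. These 3 ratios did not overlap between the groups. For HERPUD1 over SEL1L this follows from the values above, since HERPUD1 was higher and SEL1L lower in every depleted library.

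Other ratios overlapped. SSR2 over SSR4 was 2.19, 2.15 and 2 in siC and from 2.04 to 2.13 in siIGF2BP1. HSP90B1 over HSPA5 was 1.15, 1.13 and 1.23 in siC and from 1.10 to 1.16 in siIGF2BP1. CANX over CALR was 0.364, 0.379 and 0.625 in siC and from 0.531 to 0.627 in siIGF2BP1, so that siC 3 lay among the depleted libraries.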
